A study of Mus musculus with 4 samples.

Results

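Ifitm1, Ifitm2, Ifitm3 and Ifitm6 encode small membrane proteins of the interferon-induced transmembrane family, and their transcripts were followed through 4 single-cell libraries of mouse blood progenitors. These 4 genes were chosen by name from the 32265 genes in the files, with earlier results of the same data known. Their levels are therefore given as a description with no test. Ifitm1 was highest in the untreated leukaemia library, Ifitm3 was lower in both libraries from imatinib-treated mice, Ifitm2 spanned the narrowest range of library levels, and Ifitm6 reached its highest levels by far in cells rich in the neutrophil granule transcript Ngp.

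IFITM proteins sit in the plasma membrane and in endosomes, where they make it harder for enveloped viruses to fuse with the cell. Interferons switch their genes on through STAT factors and IRF9 in many cell types. Stem and progenitor cells are known to keep several of these genes on without added interferon. IFITM3 works mostly in endosomes and IFITM1 more at the cell surface. Mouse Ifitm6 is less studied and has been described in myeloid cells.

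The cells came from C57BL/6 bone marrow through the LSK gate (Lin-Sca1+cKit+), which holds stem and multipotent progenitor cells. They were profiled with inDrop, a droplet method that tags each captured transcript with a unique molecular identifier (UMI). There was 1 library for each of 4 groups: wild-type (WT) mice and mice with chronic myeloid leukaemia (CML), each either untreated or given imatinib. Imatinib inhibits the BCR-ABL kinase that drives CML and also the KIT receptor. The dose was 400 mg/kg by gavage every other day, over 30 days in the treatment protocol and 4 weeks in the sample label. The CML model, the age of the mice and the number of mice behind a library are not given in the sources used here. Since a group is a single library, differences between groups could not be tested, and the 95% intervals reflect only the counting of UMIs.

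The 4 genes lie within 63088 bases of chromosome 7 (GRCm38, chr7:140954837-141017924), in the order Ifitm2, Ifitm1, Ifitm3, Ifitm6. All are protein coding. Ifitm2 (ENSMUSG00000060591.9) spans chr7:140954837-140955987 on the minus strand, with 2 exons in 1 annotated transcript. Ifitm1 (ENSMUSG00000025491.14) spans chr7:140967221-140969825 on the plus strand, with 3 transcripts of 2 to 3 exons. Ifitm3 (ENSMUSG00000025492.6) spans chr7:141009586-141010770 on the minus strand, with 2 exons in 1 transcript. Ifitm6 (ENSMUSG00000059108.4) spans chr7:141015699-141017924 on the minus strand, with 3 transcripts of 2 to 3 exons.

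The start regions are shown because the members share a locus but not a pattern of levels. Each line gives 120 bases before and 30 bases after the RefSeq start (GRCm38.p6), 5′ to 3′ on the gene's own strand, and capitals mark matches to GAAA, any 2 bases, GAAA (the core of an interferon-stimulated response element) or TTCNNNGAA (a gamma-activated site). The windows are chr7:140955932-140956081 (minus) for Ifitm2, chr7:140967956-140968105 (plus) for Ifitm1, chr7:141010715-141010864 (minus) for Ifitm3 and chr7:141016863-141017012 (minus) for Ifitm6.
Ifitm2: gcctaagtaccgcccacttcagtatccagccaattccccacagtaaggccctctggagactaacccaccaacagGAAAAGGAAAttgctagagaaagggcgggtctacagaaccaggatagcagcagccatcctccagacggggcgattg
Ifitm1: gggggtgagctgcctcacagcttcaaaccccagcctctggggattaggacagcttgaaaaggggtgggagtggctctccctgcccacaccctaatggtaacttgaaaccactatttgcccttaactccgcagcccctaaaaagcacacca
Ifitm3: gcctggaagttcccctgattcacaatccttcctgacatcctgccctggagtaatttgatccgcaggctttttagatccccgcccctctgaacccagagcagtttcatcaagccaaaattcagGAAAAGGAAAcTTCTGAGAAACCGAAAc
Ifitm6: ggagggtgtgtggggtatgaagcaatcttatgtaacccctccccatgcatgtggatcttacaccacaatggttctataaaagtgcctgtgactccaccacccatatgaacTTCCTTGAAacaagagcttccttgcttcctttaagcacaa
The search covered 300 bases of each promoter (250 before and 50 after the start) on both strands. Ifitm2 had GAAAAGGAAA at positions -46 to -37 from its start. Ifitm3 had GAAAAGGAAA at 3 to 12 and GAAACCGAAA at 20 to 29, and the TTCTGAGAA at 14 to 22 overlaps the latter, so its capitals run on. Ifitm6 had only TTCCTTGAA, at -10 to -2, and Ifitm1 had no match to either pattern in this window. Only 1 RefSeq start per gene was searched. For Ifitm1 and Ifitm6 the window lies inside the annotated gene, so the region before its outermost annotated start was not searched. For scale, 1126 of 32817 RefSeq promoter windows of the same length (3.43%) hold the first pattern and 2722 (8.29%) the other. The 4 windows are 47.8% to 50.4% identical in pairs.

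The transcripts themselves are related. Ifitm2 and Ifitm3 are 66.9% identical after global alignment, Ifitm1 is 63.1% identical to Ifitm2 and 63.4% to Ifitm3, and Ifitm6 is 46.4% to 54.1% identical to the others. Ifitm1 and Ifitm2 share 11 stretches of 30 bases, Ifitm1 and Ifitm3 share 37, and Ifitm2 and Ifitm3 share 40, while Ifitm6 shares 0 with any. None of these shared stretches lies in the last 300 bases of the transcripts, the end from which this kind of library is read. The sources used here do not say how reads that match several genes were counted, so a small exchange of counts among Ifitm1, Ifitm2 and Ifitm3 cannot be told apart from true levels.

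After a filter of at least 500 UMIs, 200 genes and at most 20% mitochondrial UMIs, the libraries held 3030 to 5139 cells and 8245224 to 21283108 UMIs. Depth differed with treatment: the median cell had 3637.5 UMIs in the WT untreated and 5160.5 in the CML untreated library, against 1486 and 1198 in the WT and CML imatinib libraries. The untreated files start near 1000 UMIs per cell (lowest 1001 and 1006) and the imatinib files at 200. Xist, a transcript of female cells, stood at 2375 per 1000000 UMIs (CPM) in the CML untreated library, 94.97 in CML imatinib, 1.52 in WT untreated and 3.15 in WT imatinib, so sex also differs between the libraries and cannot be told apart from genotype or treatment. Of the genes behind the sorting gate, Ly6a (Sca1) stood at 192 CPM in WT untreated and 95.8 in CML untreated. It was lower in the imatinib libraries, at 49.6 in WT and 51.05 in CML. Kit stood at 136 and 149 CPM in WT and CML untreated, and at 176 and 143 in WT and CML imatinib. Cell names recur between libraries, most between WT untreated and WT imatinib (1135 names, 39.6% and 20.4% of those libraries, against 80 to 340 names for the other pairs). The profiles behind 1031 such shared names correlated no more (median r 0.312) than profiles paired after reordering the names (0.312). The calls given below on whole libraries were the same genes without the cells of shared name.

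Ifitm1 stood at 367 CPM in WT untreated cells, 236 in WT imatinib, 698 in CML untreated and 241 in CML imatinib. The CML untreated library was the high one and the 2 imatinib libraries were alike. Ifitm2 stood at 383, 325, 329 and 238 CPM in the same order, highest in WT untreated and lowest in CML imatinib. Ifitm3 stood at 382, 153, 331 and 168 CPM, with both untreated libraries above both imatinib libraries. Ifitm6 stood at 7.07, 39.5, 8.55 and 53.6 CPM, the opposite order of untreated and imatinib libraries. In such sums over a library, fewer cells of a type and less RNA per cell cannot be told apart. These values rest on 93 UMIs of Ifitm6 in WT untreated up to 14853 UMIs of Ifitm1 in CML untreated. A UMI counts a molecule whatever its length, so no length scaling was applied between the genes.

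**Figure D1:**
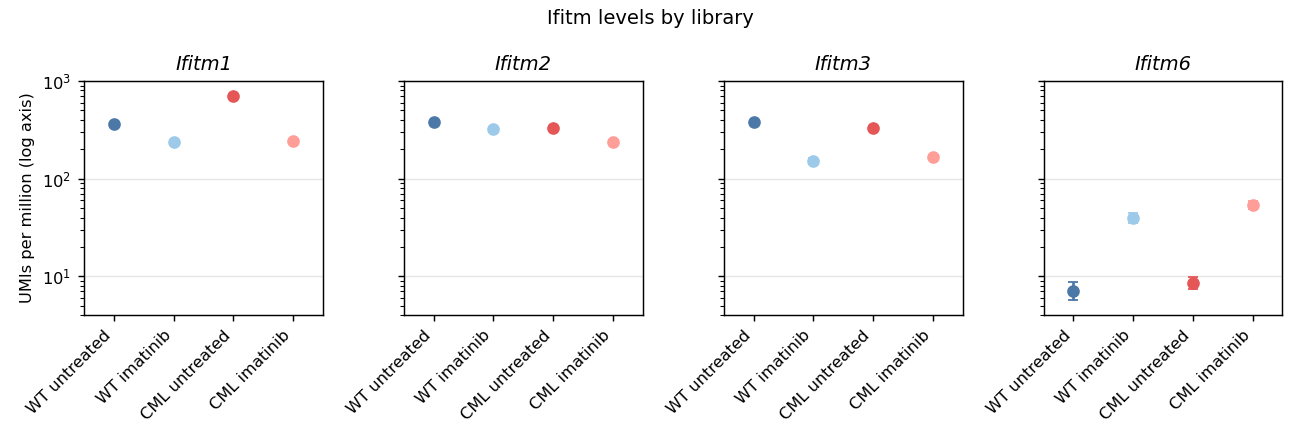
Level of each gene in the 4 libraries, in CPM on a log axis, with exact Poisson 95% intervals where they are wider than the point. Ifitm1 is highest in CML untreated (698), Ifitm3 lies at 331 and 382 in the untreated and at 153 and 168 in the imatinib libraries, and Ifitm6 is low (7.07 and 8.55) in the untreated libraries.

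A difference was called from 2-fold upwards where the higher library had 50 CPM and 50 UMIs or more, a description of size and not a test. The comparisons share libraries and are not independent of one another. In CML untreated against WT untreated, 0 of the 3 members that reached this floor were called, where 0.915% of 3824 genes were. Ifitm1 came nearest, at 1.90-fold in CML (log2 0.93, interval 0.88 to 0.98), while Ifitm2 (log2 -0.22) and Ifitm3 (log2 -0.21) were slightly lower in CML and Ifitm6 stayed below the floor.

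In CML imatinib against CML untreated, 2 of 4 members were called, where 17.4% of 4265 genes were. Ifitm1 was 2.90-fold lower with imatinib (log2 -1.53, interval -1.60 to -1.47) and Ifitm6 6.26-fold higher (log2 2.65, interval 2.40 to 2.90). Ifitm3 missed the 2-fold line narrowly at 1.97-fold lower (log2 -0.97, interval -1.05 to -0.90), and Ifitm2 was lower by less (log2 -0.47). The call of Ifitm6 sits near its floor of 50 CPM, and with TMM scaling, with at least 1000 UMIs per cell or without the Ngp and Trac cells it was replaced by Ifitm3.

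In WT imatinib against WT untreated, 1 of 3 members was called, where 13% of 4092 genes were. That gene was Ifitm3, 2.49-fold lower with imatinib (log2 -1.32, interval -1.41 to -1.23). Ifitm1 (log2 -0.64) and Ifitm2 (log2 -0.24) were lower by less. Ifitm6 was 5.59-fold higher (log2 2.48) but did not reach 50 CPM. The Ifitm3 call was lost, with the same direction, after every cell was thinned to 500 UMIs (log2 -0.95) and in cells without Elane (log2 -0.52).

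In CML imatinib against WT imatinib, 0 of 4 members were called, where 2.5% of 3914 genes were. Ifitm1 (log2 0.03) and Ifitm3 (log2 0.13) were nearly level, Ifitm2 was lower in CML (log2 -0.45) and Ifitm6 higher (log2 0.44). In this comparison the direction turned for Ifitm1 and Ifitm3 with TMM scaling (log2 -0.20 and -0.10) and with thinning to 500 UMIs (log2 -0.09 and -0.13). TMM scaling put the median log2 ratio of the genes at the floor at -0.15, -0.43, -0.34 and -0.28 in the 4 comparisons in the order given, against 0.03, -0.05, -0.05 and -0.02 without it.

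The 4 genes together took 1139 CPM in WT untreated, 754 in WT imatinib, 1366 in CML untreated and 701 in CML imatinib. In the WT untreated library Ifitm1, Ifitm2 and Ifitm3 held nearly equal parts of the family's UMIs (32.2%, 33.6% and 33.6%). In the CML untreated library Ifitm1 alone held 51.1%. Ifitm2 was the largest part in WT imatinib (43.1%), and in CML imatinib Ifitm1 (34.4%) and Ifitm2 (34.0%) were level. Ifitm6 held 0.621% and 0.626% in the untreated libraries and 5.25% and 7.64% in the imatinib libraries.

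**Figure D2:**
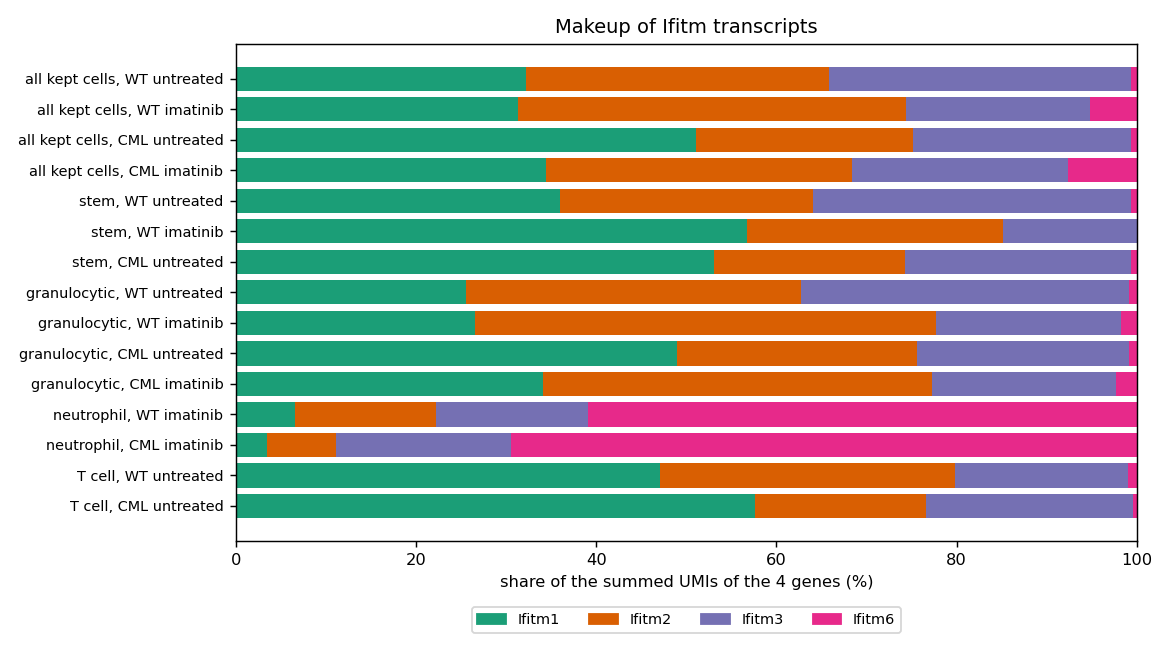
Share of the summed UMIs of the 4 genes held by each (percent), for all kept cells and for the marker-defined classes, leaving out the Hlf class of CML imatinib and groups of few cells. Ifitm6 holds 61.0% and 69.4% of the bar in the Ngp class, and Ifitm1 holds 49.0% to 57.6% of every CML untreated bar drawn.

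Cells were next split by 1 marker each: stem (Hlf, at least 1 UMI), T cell (Trac, at least 1 UMI), granulocytic (Elane, at least 3 UMIs) and neutrophil (Ngp, at least 3 UMIs). Hlf is a transcription factor gene of stem cells, Elane codes for neutrophil elastase of the primary granules, Ngp for a protein of the secondary granules, and Trac for the constant part of the T cell receptor alpha chain. Cells with Elane and Ngp formed a group of their own and cells with no marker were unclassed. The stem class held 447 cells of WT untreated (14.8%), 64 of WT imatinib (1.53%), 583 of CML untreated (19.2%) and 57 of CML imatinib (1.11%). The granulocytic class held 13.8%, 66.5%, 17.7% and 62.1% of cells in the same order. The neutrophil class held 80 cells of WT imatinib and 166 of CML imatinib, and 0 of 3030 and 0 of 3032 cells in the untreated libraries, which allows a share of up to 0.0990%. That limit covers only cells of about 1000 UMIs or more, since the untreated files hold none below 1001 and 1006. At 1000 UMIs or more the neutrophil class kept 37 cells of WT imatinib and 80 of CML imatinib. The T cell class held 80 cells of WT untreated and 106 of CML untreated, but 4 and 1 in the imatinib libraries. Because 1 UMI of Hlf is found more readily in a deeper cell, the class sizes move with depth. With classes set after thinning each cell to 500 UMIs, the stem class held 140, 45, 143 and 35 cells.

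The classes were held against lists of their known markers. In the granulocytic class 10 of 10 list genes were found in every library, with a summed level of 15820 to 32480 CPM, and Elane itself stood at 4720 and 3277 CPM in the untreated and at 11230 CPM in the WT imatinib library. In the neutrophil class 12 of 12 were found, at 252600 and 272200 CPM. The T cell class of the untreated libraries had 11 of 12 (6048 and 6684 CPM), and it also carried plasma and B cell transcripts at 38620 and 17150 CPM. The stem class had 11 or 12 of 12 list genes in 3 libraries, at 2055 (WT untreated), 3223 (WT imatinib) and 1653 CPM (CML untreated), of which Hlf, the gene that chose the cells, made up 527, 1603 and 428. The granulocytic list summed to 2472, 3570 and 2386 CPM in the same cells. Each class's sum holds the marker that chose it and is no test of the label. In the WT imatinib stem class Tek stood at 0, Procr and Esam at 1 UMI each, and 29.7% of its 64 cells had an Elane UMI. In CML imatinib the stem class had 10 of 12 list genes at 842 CPM, with Procr and Tek at 0 and erythroid transcripts at 6718 CPM. There, 9 cells of over 5000 UMIs held 81.2% of the class's UMIs, with Hlf at 39.9 CPM and Cd34 at 4.43, so this group is called the Hlf class of CML imatinib below. Its other 48 cells had Hlf at 1649 and Cd34 at 652 CPM but also the stromal transcript Cxcl12 at 2167.

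Among the marker-defined classes, Ifitm1 was highest in the stem class of 3 libraries, at 547 CPM (WT untreated), 694 (WT imatinib) and 793 (CML untreated). In WT imatinib the interval (500.4 to 938) holds the level of unclassed cells (636). Unclassed cells with mast cell and basophil transcripts stood higher in the same libraries, at 991 (7 cells), 736 and 1423 CPM. Granulocytic levels of Ifitm1 were 257, 163 and 624 CPM in those libraries and 210 in CML imatinib. Stem cells were thus above granulocytic cells by 2.13-fold in WT untreated (log2 1.09, interval 0.95 to 1.23), 4.25-fold in WT imatinib (log2 2.09, interval 1.61 to 2.53) and 1.27-fold in CML untreated (log2 0.35, interval 0.28 to 0.41). That contrast called 1 of 3 members in WT untreated, where 12.3% of genes were called, and 0 of 3 in CML untreated, where 10.1% were. In WT imatinib the stem class had 42 Ifitm1 UMIs, below the floor of 50 UMIs, so that ratio could not be called. The Hlf class of CML imatinib stood at 57.6 CPM from 16 UMIs, all of them in its 48 cells of at most 5000 UMIs, where the level was 307 CPM (interval 175 to 498). In T cells Ifitm1 stood at 257 CPM in WT untreated, with 27 of its 49 UMIs from 1 cell, and at 409 in CML untreated. In the neutrophil class it stood at 223 CPM in WT imatinib and 80.9 in CML imatinib.

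Ifitm2 in the granulocytic class stood at 374 (WT untreated), 316 (WT imatinib), 339 (CML untreated) and 266 CPM (CML imatinib), and in the stem class at 426, 347 and 318 in the first 3 of these. The Hlf class of CML imatinib stood at 97.2 CPM, which splits into 326 in the 48 cells of at most 5000 UMIs and 44.3 in the 9 deep cells. Its T cell levels were lower, at 178 and 135 CPM in the untreated libraries. In the neutrophil class it reached 533 CPM in WT imatinib and 177 in CML imatinib.

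Ifitm3 in the stem class stood at 536 CPM in WT untreated and 375 in CML untreated, against 182 in WT imatinib. The Hlf class of CML imatinib stood at 144 CPM, with 33 of its 40 UMIs from the 9 deep cells. The granulocytic class stood at 367 and 299 CPM in the untreated libraries and at 126 in both imatinib libraries. Neutrophil cells held far more, 572 CPM in WT imatinib and 450 in CML imatinib. That is 4.53-fold and 3.57-fold above the granulocytic class of the same library (log2 2.18, interval 1.77 to 2.56, and 1.83, interval 1.5 to 2.15). Between these classes 2 of 3 members were called in WT imatinib and 3 of 4 in CML imatinib, where 58.9% and 57.9% of genes were, and the classes were made with markers of the same cells. T cells had the least among the larger classes of the untreated libraries, at 105 and 163 CPM.

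Ifitm6 marked the neutrophil class. It stood there at 2075 CPM in WT imatinib (214 UMIs) and 1608 in CML imatinib (318 UMIs), above the other 3 members in both. Granulocytic cells of the 4 libraries held 9.04 to 14.3 CPM, so that neutrophil cells were 189-fold higher in WT imatinib (log2 7.57, interval 7.17 to 7.97) and 113-fold higher in CML imatinib (log2 6.82, interval 6.46 to 7.18). Cells with both Elane and Ngp lay between, at 104 and 159 CPM. In the neutrophil class 71.3% (WT imatinib) and 54.8% (CML imatinib) of cells had a UMI of Ifitm6, or 54.9% and 43.2% after thinning to 500 UMIs, although these cells were shallow (median 938 and 967 UMIs). T cells, which are not known to use Ifitm6, had it in 1 of 80 and 1 of 106 cells at medians of 1760.5 and 2297.5 UMIs. The stem class had 9.86 and 9.76 CPM in the untreated libraries, and 0 UMIs in 64 and 57 cells with imatinib, which allows up to 49.6 and 10.8 CPM. At such levels a low true expression and free RNA from other droplets cannot be told apart.

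The neutrophil class held 65.6% of the Ifitm6 UMIs of the WT imatinib library with 1.25% of all its UMIs, and 62.2% with 2.07% in CML imatinib. The untreated libraries had 0 cells of this class. Within the granulocytic class Ifitm6 was close to level between treatments (log2 0.28, interval -0.38 to 0.97, in WT, and 0.36, interval -0.14 to 0.85, in CML). In unclassed cells it was higher with imatinib (log2 1.89, interval 1.12 to 2.63, in WT, and 1.81, interval 1.32 to 2.30, in CML) on 25 and 72 UMIs. Over all cells but the neutrophil, T cell and Elane with Ngp classes, the log2 ratio of Ifitm6 was 0.80 in WT and 0.98 in CML, in place of 2.48 and 2.65.

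**Figure D3:**
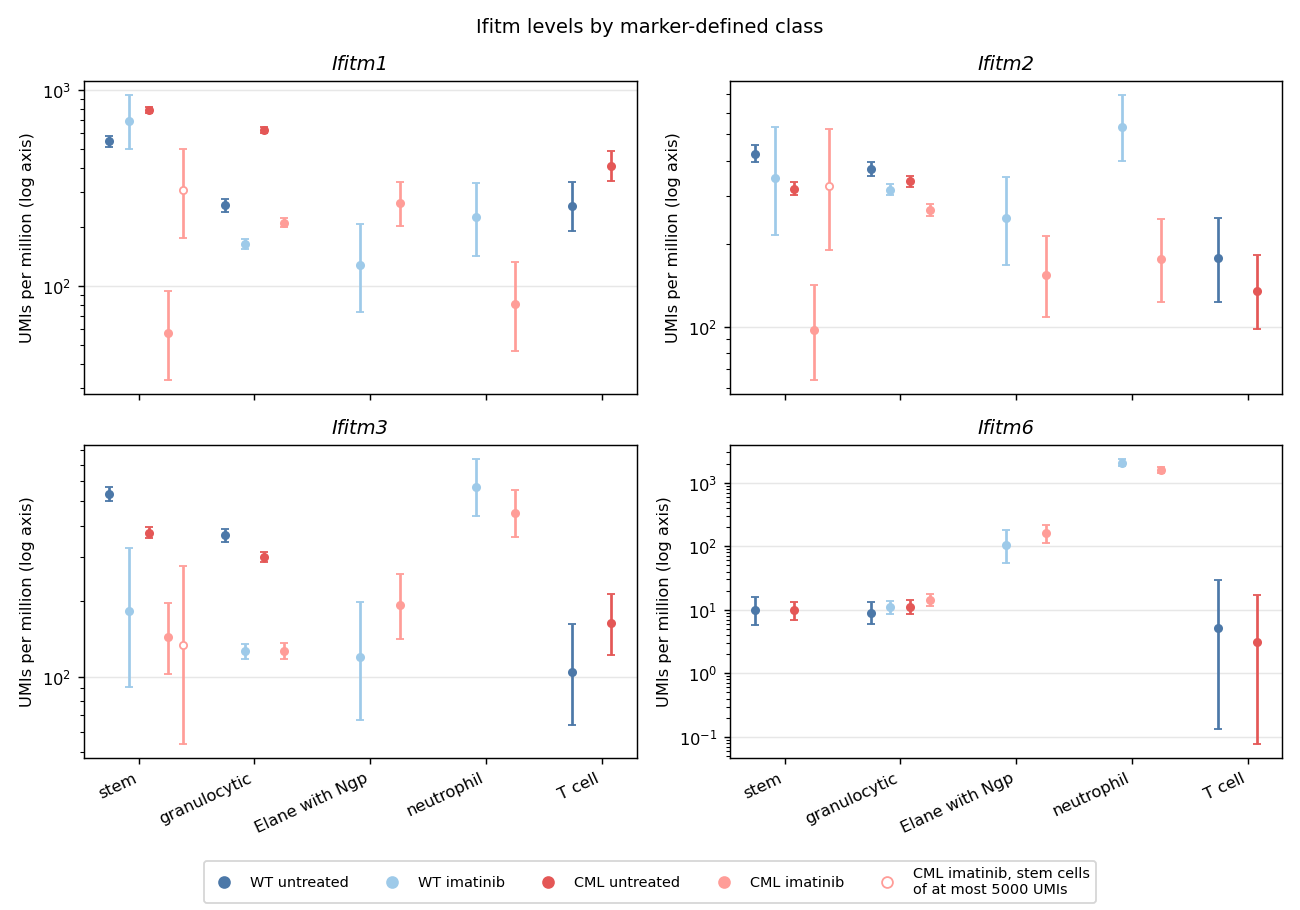
Level of each gene by marker-defined class and library, in CPM on a log axis with exact Poisson 95% intervals; groups with 0 UMIs are not drawn, and open points are the CML imatinib Hlf cells of at most 5000 UMIs. Ifitm6 in the Ngp class (2075 and 1608) stands far above every other group, and the granulocytic Ifitm1 of CML untreated (624) above that of the other 3 libraries (163 to 257).

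Libraries were then compared within the stem, granulocytic, T cell and unclassed groups. Among these, the excess of Ifitm1 in CML untreated over WT untreated was widest in granulocytic cells, at 2.43-fold (log2 1.28, interval 1.17 to 1.40). There 1 of 3 members was called, where 1.04% of 3862 genes were. In the stem class the same ratio was 1.45-fold (log2 0.54, interval 0.43 to 0.64), in unclassed cells 1.88-fold (log2 0.91) and in T cells 1.60-fold (log2 0.67, interval 0.19 to 1.18). The T cell ratio rests on 49 UMIs in WT, 27 of them from 1 cell, and 133 UMIs in 17 of 106 cells in CML. The stem, unclassed and T cell groups called 0 members, where 1.08%, 1.08% and 10.2% of genes were called. Parts of the unclassed cells varied widely in this excess. Ifitm1 stood at 114 CPM in CML against 101 in WT in those with megakaryocyte transcripts. In those with plasma and B cell transcripts it stood at 402 against 70.2. Ifitm2 and Ifitm3 were lower in CML in the stem class (log2 -0.42 and -0.52) and in the granulocytic class (log2 -0.14 and -0.29).

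With imatinib, Ifitm3 was lower in the granulocytic class of both genotypes and in the stem class of WT. In granulocytic cells it was 2.90-fold lower in WT (log2 -1.54, interval -1.67 to -1.41), the only member called where 7.21% of genes were. In CML granulocytic cells it was 2.37-fold lower (log2 -1.25, interval -1.37 to -1.12) and Ifitm1 2.97-fold lower (log2 -1.57, interval -1.67 to -1.48), so that 2 of 3 measured members were called, where 13.2% of genes were. In WT granulocytic cells Ifitm1 fell short of the fold line (log2 -0.65, interval -0.79 to -0.52). In unclassed cells Ifitm1 was the only member called in CML (log2 -1.10), where 24.7% of genes were, and 0 were called in WT, where 11.3% were. Without cells of another cell type's list that call was lost, with Ifitm1 at 807 CPM in CML untreated and 615 in CML imatinib. The cells left out include 161 with erythroid transcripts in CML imatinib, which held 1418793 UMIs and Ifitm1 at 2.11 CPM. In the WT stem class Ifitm3 was 2.95-fold lower (log2 -1.56, interval -2.57 to -0.71) on 11 UMIs with imatinib. That was the only member called, where 34.3% of genes were. In the Hlf class of CML imatinib 3 members were called lower than in CML untreated, where 52.9% of genes were, and the class differs in its markers as described.

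Between the imatinib libraries granulocytic and unclassed cells called 0 members, where 0.649% and 17.5% of genes were called. The neutrophil class held 1 call, Ifitm2, 3.01-fold lower in CML (log2 -1.59, interval -2.25 to -0.95), where 7.6% of 408 genes were called. Ifitm6 (log2 -0.37, interval -0.62 to -0.11) and Ifitm3 (log2 -0.35, interval -0.84 to 0.15) differed little. In cells with both Elane and Ngp, Ifitm1 was 2.06-fold higher in CML (log2 1.04, interval 0.23 to 1.94), the only call where 6.68% of genes were. The mean of single-cell CPM gave no such difference (248.2 in WT and 236 in CML), nor did the share of cells with an Ifitm1 UMI after thinning (9.84% and 9.92%).

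The granulocytic classes differ in how much Elane their cells carry, so levels were also read along Elane, in bins of its UMIs per 1000 UMIs of the cell. These bins, chosen after the data were seen, hold the cells with no Hlf, Trac or Ngp call. In WT untreated Ifitm1 stood at 382, 378, 234, 200 and 65.2 CPM from Elane 0 through above 0 to 2, 2 to 5, 5 to 10 and 10 or more. In WT imatinib the values were 690, 584, 440, 191 and 41.4 CPM. In CML untreated they were 695, 858, 528, 288 and 101 CPM, and in CML imatinib 300.4, 415, 495, 245 and 45.1. Ifitm1 was lowest in the bin of most Elane in all 4 libraries, which hold 52, 1347, 34 and 1400 cells there.

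Ifitm3 had its lowest level in the same bin, at 88.7 and 44.8 CPM in untreated and imatinib WT cells and at 67.0 and 44.3 in untreated and imatinib CML cells. At Elane 0 it stood at 362, 252, 348 and 263 CPM in the same order. Ifitm2 hardly moved along Elane: its 5 bins spanned 321 to 412 CPM in WT untreated, 291 to 399 in WT imatinib, 305 to 375 in CML untreated and 192 to 294 in CML imatinib. The drop into the last bin was thus steep for Ifitm1 and Ifitm3 and slight for Ifitm2. Just outside and inside the class minimum (2 and 3 Elane UMIs), Ifitm1 stood at 395 and 410.3 CPM in WT untreated, 472 and 585 in WT imatinib, 989.5 and 957 in CML untreated, and 559 and 402 in CML imatinib.

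**Figure D4:**
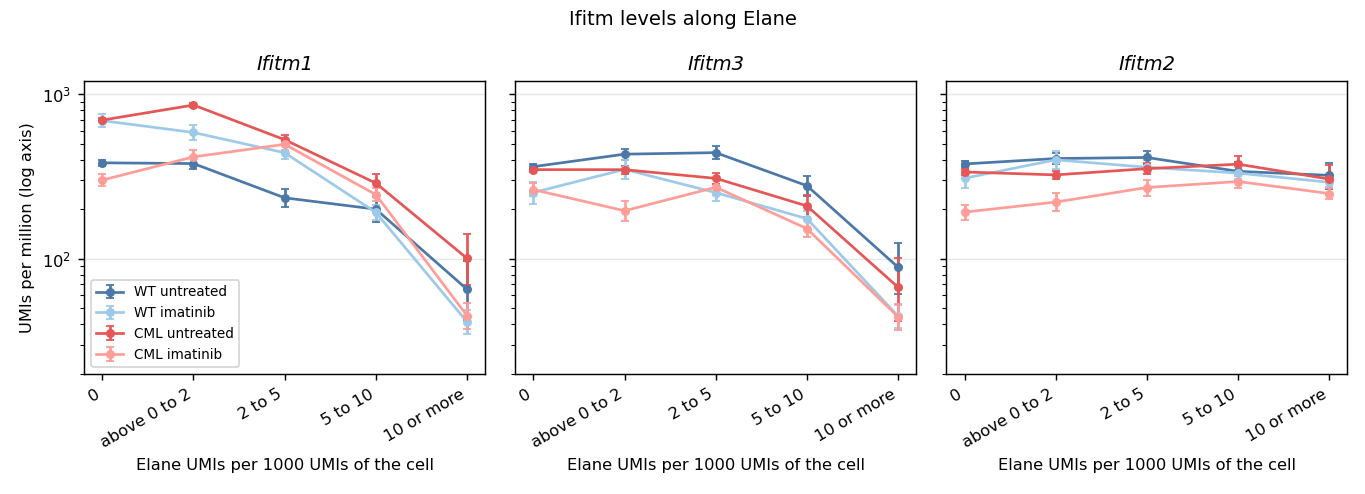
Levels of Ifitm1, Ifitm3 and Ifitm2 (CPM, log axis, exact Poisson 95% intervals) in cells binned by Elane UMIs per 1000 UMIs of the cell, with 1 line per library. Ifitm1 and Ifitm3 reach their lowest values (41.4 to 101, and 44.3 to 88.7) at the right end, while Ifitm2 ends between 248.8 and 321.

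Within bins, Ifitm1 was higher in CML untreated than in WT untreated at each Elane level (log2 0.86, 1.18, 1.17, 0.53 and 0.62, the last with an interval of -0.17 to 1.44). For imatinib in WT, the ratio of Ifitm1 was 0.85, 0.63 and 0.91 (log2) in the 3 bins of least Elane, then -0.07 and -0.66, while over the whole library it was -0.64. The direction thus differed between the whole library and the cells of little Elane, and the share of cells in the 2 bins of most Elane differed between the libraries too. In CML the imatinib ratio of Ifitm1 was -1.21, -1.05, -0.09, -0.23 and -1.16. Ifitm3 was lower with imatinib in all bins, by log2 ratios of -0.52, -0.31, -0.81, -0.67 and -0.99 in WT and -0.40, -0.83, -0.18, -0.46 and -0.60 in CML. In CML the intervals of the third and the fifth of these bins include 0.

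The cells of CML imatinib without Elane include 247 that carry at least 10 UMIs of another cell type's list, and Ifitm1 stood at 133 CPM in these. Without such cells, those with Elane at 0 held Ifitm1 at 448 CPM in WT untreated, 694 in WT imatinib, 786 in CML untreated and 611 in CML imatinib. The imatinib ratio in CML was then -0.36 (log2, interval -0.51 to -0.21) in place of -1.21. In WT it was 0.63 (interval 0.47 to 0.79) in place of 0.85, and the CML against WT ratio without treatment was 0.81. Ifitm3 in the same cells stood at 382, 286, 374 and 363 CPM, so that in CML it was level between treatments (log2 -0.04, interval -0.24 to 0.15).

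Along Ngp, read in the same way in the imatinib libraries, the members parted. Ifitm6 stood at 11.6 CPM in WT imatinib cells with no Ngp, 97.7 at above 0 to 2 and 226 at 2 to 5 Ngp UMIs per 1000, and 1615 at 10 or more. In CML imatinib it stood at 18.3, 17.2, 176, 621 and 1446 CPM over all 5 bins. Ifitm1 moved the other way at the top: 57.4 CPM (7 UMIs) in WT imatinib and 4.82 (1 UMI in 159 cells) in CML imatinib, against 237 and 252 in cells with no Ngp. Ifitm3 was higher in the top bin than at no Ngp, 484 against 149 CPM in WT imatinib and 357 against 164 in CML imatinib. Ifitm2 was 443 against 321 CPM in WT imatinib but 178 against 247 in CML imatinib.

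**Figure D5:**
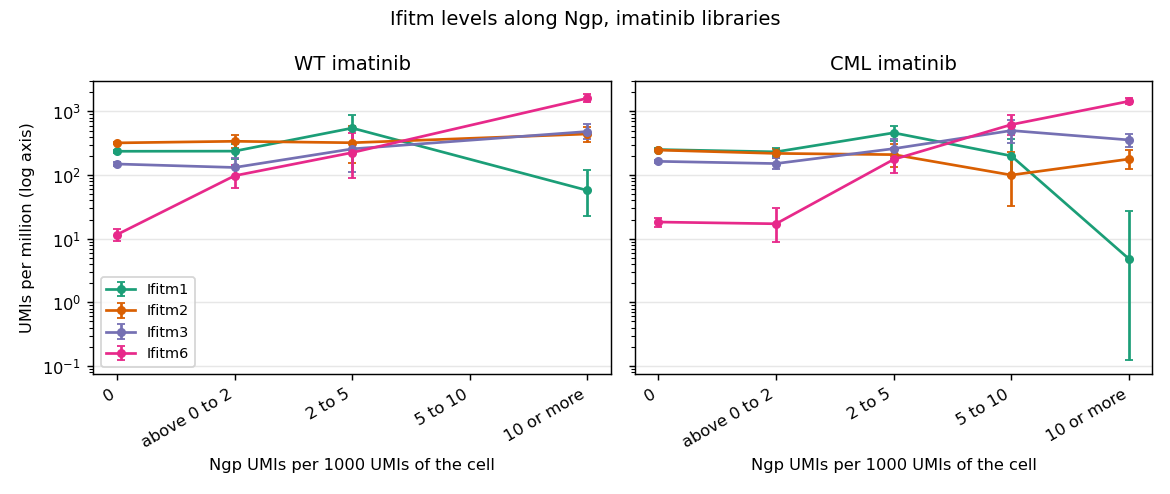
Levels of the 4 genes (CPM, log axis, exact Poisson 95% intervals) in cells of the imatinib libraries binned by Ngp UMIs per 1000 UMIs of the cell; bins of under 20 cells are left out. Ifitm6 climbs to 1615 and 1446 in the bin of most Ngp, where Ifitm1 drops to 57.4 and 4.82.

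From cell to cell Ifitm1 was the least even of the 3 abundant members in the untreated libraries. In CML imatinib the top 1% of cells held 31.3% of the Ifitm3 UMIs and 22.3% of the Ifitm1 UMIs. In CML untreated 65.8% of cells had an Ifitm1 UMI, where an even spread of the same UMIs by depth would give 91.8%, and in WT untreated 47.1% against 71.1%. For Ifitm2 the same figures were 66.2% against 77.1% and 63.7% against 72.3%. In CML untreated 493 cells had 10 or more Ifitm1 UMIs and held 63.3% of them, against 64 cells and 19.1% in WT untreated. Of those 493 cells 106 were of the stem class, 126 granulocytic and 234 unclassed, so they belonged to no single class. Such cells were deep (median 10198 UMIs). After thinning to 500 UMIs, 29.3% of stem and 24.1% of granulocytic cells of CML untreated had an Ifitm1 UMI, against 23.2% and 11.6% in WT untreated and 4.41% and 8.34% in the T cells of WT and CML untreated.

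Ifitm1 and Ifitm3 shared cells a little more often than independent genes would, at equal depth of 500 UMIs. In granulocytic cells both were found in 2.59% of WT untreated cells against 1.98% if independent, 0.831% against 0.450% in WT imatinib, 4.18% against 3.21% in CML untreated and 0.788% against 0.392% in CML imatinib. Ifitm2 with Ifitm3 was closer to independence (3.30% against 2.87%, 0.867% against 0.828%, 2.19% against 2.04%, and 0.572% against 0.601%). In the stem class the shares for Ifitm1 with Ifitm3 were 6.27% against 5.17% in WT untreated, 5.67% against 5.05% in CML untreated and 1.16% against 1.68% in the 64 cells of WT imatinib. These are descriptions of sparse counts, and granulocytic cells differ in Elane, at whose highest level Ifitm1 and Ifitm3 were both lowest.

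Over the 17 library-by-class groups of at least 50 cells, Ifitm1 ranged from 57.6 to 793 CPM (median 333), Ifitm2 from 97.2 to 533 (median 318), Ifitm3 from 105 to 572 (median 273) and Ifitm6 from 0 to 2075 (median 9.86). Neighbours in the order of levels were mostly within counting error of each other. Of the 16 steps between them, the interval of the log2 ratio left out 0 at 6 for Ifitm1, 3 for Ifitm2, 2 for Ifitm3 and 3 for Ifitm6. The last step of Ifitm6, between groups of 0 UMIs, has no ratio. Across these groups, on the scale of log2(CPM + 1), Ifitm2 correlated with Ifitm3 (r = 0.59) and Ifitm1 (r = 0.55), and Ifitm3 with Ifitm6 (r = 0.50). Ifitm1 with Ifitm3 (r = 0.26), Ifitm2 with Ifitm6 (r = 0.17) and Ifitm1 with Ifitm6 (r = -0.27) were weaker. The groups include the Hlf class of CML imatinib, the lowest for Ifitm1 (57.6 CPM) and Ifitm2 (97.2). They also include the neutrophil classes, with Ifitm6 at 2075 and 1608 CPM where the next group had 159. Correlations without these groups were not computed. Groups of 1 library share its depth and preparation, and the n of 17 is groups and not mice.

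Among 6765 genes, those with the pattern most like Ifitm1 over the 17 groups were Spns2, a sphingosine-1-phosphate transporter (r = 0.90), the thrombin receptor gene F2r (0.89) and Tmem59 (0.88). Among those nearest to Ifitm2 were Trim41 (0.85) and Tsen34 (0.85). Nearest to Ifitm3 were the lectin receptor gene Clec4e (0.85), Ell (0.76) and Cdc42ep3 (0.74). Ifitm6 was tracked most closely, by Slfn4 (0.96), the myeloid receptor gene Pilra (0.95) and Cd177, a surface protein of neutrophils (0.94). All these genes were picked for the highest r among 6765. For Ifitm6 the neutrophil classes stood at 2075 and 1608 CPM where the next group had 159, and r without them was not computed.

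The interferon pathway around the family was read as lists, over all kept cells of a library and not within classes. Class sizes differ widely between the libraries, and the part of cell makeup in the list ratios was not tested. Of 22 interferon-induced genes in the files only 2 to 4 reached the call floor in a comparison. In CML untreated against WT untreated 0 were called, of 4 at the floor (0.915% of all genes), with a median log2 ratio of -0.37 (15 genes of at least 10 CPM) where all genes had 0.03. In WT imatinib against WT untreated 3 of the 4 at the floor were called lower and 0 higher (all genes 13%, with 223 lower and 310 higher), with a median of -1.43 against -0.03. These were Rtp4, a chaperone of receptor transport (68.3 to 4.73 CPM), Ifi203, a DNA sensor gene (89.9 to 29.6 CPM), and Trim30a (133 to 48.8 CPM). In CML imatinib against CML untreated 1 of the 3 at the floor was called higher and 2 lower (all genes 17.4%), with a median of -0.46 against 0.01: Rsad2, the antiviral enzyme viperin, rose from 10.9 to 56.6 CPM, and Ifi203 (65.9 to 26.1 CPM) and Trim30a (118 to 39.3 CPM) were lower. In CML imatinib against WT imatinib Rsad2 was the only one called of 2 at the floor (all genes 2.5%), higher in CML, with a median of 0.20 against 0.02.

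Of 11 receptor and signalling genes, Ifngr1, a chain of the interferon gamma receptor, was called higher in WT imatinib than WT untreated (129 to 378 CPM) and Irf9 lower (86.9 to 40.3 CPM), and the other 3 comparisons called 0. Of 8 other antiviral restriction factors, Apobec3, a cytidine deaminase, was called lower with imatinib in WT (250.5 to 111 CPM) and in CML (270 to 112 CPM). Of 6 genes whose products modify IFITM proteins, Nedd4, a ubiquitin ligase that marks IFITM3 for turnover, was called lower with imatinib in WT (388 to 181 CPM) and in CML (470.3 to 165 CPM). Of 9 relatives with the same CD225 domain, 0 reached the call floor in any comparison. These lists too were read over all kept cells and not within classes.

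At the locus, 20 other annotated genes lie within 100 kb of the cluster, 14 of them in the files and 8 at 10 CPM or more in some library. Psmd13, a proteasome subunit gene, was the most abundant (105 and 153 CPM in untreated and imatinib WT cells, 90.1 and 169 in those of CML). Sirt3, a mitochondrial deacylase gene, stood at 65.9, 38.9, 59.2 and 33.7 CPM in that order, Bet1l at 35.9 to 46.3 and Ric8a at 31.8 to 42.3. Ifitm5, the family member of bone-forming cells that lies beside Ifitm2, stayed at or below 0.629 CPM. BC024386, a processed transcript, stood at 22.7, 52.3, 36.7 and 61.5 CPM, the same order of libraries as Ifitm6. Psmd13 too was higher in both imatinib libraries, and Sirt3 lower in both, as Ifitm3 was. Gm45717, on the same strand as Ifitm2 and overlapping it, was not analysed here, and reads of the overlap cannot be told apart.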

How the data were processed

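The authors deposited, per the file headers, a matrix of 32265 genes by cells for each library, holding a normalized signal with cell sums of 2788.726 to 2839.187. Partek 8.0, Bowtie 1.1.1 and GRCm38 (mm10) are listed in the submitters' processing notes without a role. In each cell the deposited signal values were whole multiples of its smallest value (100.0% within 0.02), so dividing by it returned UMI counts. Headers hold 1 name more than there are columns, so cells were taken by position. Kept cells had at least 500 UMIs, 200 genes and at most 20% mitochondrial UMIs, and doublets were not called. UMIs were summed per library or class and scaled to 1000000 (CPM). Intervals (95%) are exact: Poisson for CPM, Clopper-Pearson for shares, conditional binomial for ratios. A count of 0 is given its limit of 3 counts. A list median covers genes of at least 10 CPM in either library.

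Members and lists were chosen with earlier results of these data known. Named are the 4 members, the 3 genes most like each (Pearson r of log2(CPM + 1) over groups of at least 50 cells, among genes of at least 50 CPM), at most 3 genes per list of at least 20 CPM, class markers, and genes within 100 kb by position. Of the genes most like a member, 1 is not reported here. Unclassed cells were assigned to another cell type's list by at least 10 UMIs from at least 3 of its genes. Groups came from sample titles. Coordinates are from GENCODE vM21, promoters and their starts from RefSeq (all 4 members matched). Alternatives covered the cell filter, scaling (edgeR 4.0.16 TMM in R 4.3.3), thinning, floors and class minimums. Those that leave out shared names, other cell types or Elane cells, the Elane and Ngp bins, and the limit of 5000 UMIs, were chosen after seeing the data. Python 3.11.15 was used with numpy 2.4.6, scipy 1.17.1, pandas 2.3.3, Biopython 1.88 and matplotlib 3.10.9. Calls were also run on simulated Poisson counts with planted fold changes. That simulation held no variation between cells, mice or libraries, so it cannot show how reliable calls between single libraries are. Protein sequences were planned but not analysed here.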

Additional observations from a re-analysis of the deposited data

Results flagged for a closer look

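Ifitm1 moved in opposite directions with imatinib in WT and in CML, in unclassed cells and in cells of little or no Elane, some of the latter of the granulocytic class. In unclassed cells the log2 ratio of imatinib over untreated was 0.75 in WT and -1.10 in CML, a difference of -1.85. In cells with Elane at 0 the ratios were 0.85 and -1.21 (difference -2.06), and in cells with Elane above 0 and up to 2 UMIs per 1000 they were 0.63 and -1.05 (difference -1.68). With 1 library per group these differences were not tested. Without the cells that carry another cell type's list, unclassed cells held Ifitm1 at 444 CPM in WT untreated, 634 in WT imatinib, 807 in CML untreated and 615 in CML imatinib, so the fall in CML was much smaller. In the same way the ratios at Elane 0 were 0.63 in WT and -0.36 in CML, still of opposite sign but closer. The part of sex, depth and cell makeup, which differ between these libraries, was not tested.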

How the results depend on the processing

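Of the library log2 ratios of Ifitm genes, 167 of 176 alternative values kept the direction and 9 did not, with a largest change of 1.68, and of the ratios within classes 300 of 310 kept it, with a largest change of 2.55. The count of members called in CML imatinib against CML untreated (2) became 1 with a floor of 100 CPM and 100 UMIs and 1 in cells without Elane, Ifitm1 in both. It was 3 without the 5% of cells with the most UMIs and 3 without cells of other lists, with Ifitm3 added. In WT imatinib against WT untreated the count (1) became 2 with the mean of single-cell CPM and 2 with a floor of 20 CPM and 20 UMIs, with Ifitm6 added, and 0 in cells without Elane. In CML imatinib against WT imatinib the count (0) became 1 in cells without Elane, where Ifitm1 was lower in CML (log2 -1.20), a call lost without cells of other lists (-0.18, interval -0.39 to 0.02). In the Hlf class, Ifitm2 in CML imatinib against CML untreated turned from -1.71 to 0.14 (log2) without the 5% of cells with the most UMIs, which takes out the deep cells described above. Ifitm1 in CML untreated against WT untreated stayed between 0.76 and 0.95, Ifitm3 in WT imatinib against WT untreated between -1.57 and -0.52, and Ifitm1 in the latter comparison ranged from -0.89 to 0.85. No paired analysis was possible because each group has 1 library. There is 1 library per group, and sex, depth and cell makeup differ between libraries. Ifitm6 in untreated cells rests on 93 and 182 UMIs, and the stem classes of the imatinib libraries on 64 and 57 cells.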

Other observations

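Unclassed cells that carry at least 10 UMIs of another cell type's list, from at least 3 of its genes, showed further patterns of the family. In cells with mast cell and basophil transcripts Ifitm1 stood at 736 CPM in WT imatinib (100 cells), 1423 in CML untreated (26 cells) and 1110 in CML imatinib (126 cells), and Ifitm3 at 37.7, 89.6 and 64.7. The 7 such cells of WT untreated had Ifitm1 at 991 and Ifitm3 at 340.5 CPM (11 UMIs). In cells with megakaryocyte transcripts Ifitm3 was the higher of the pair, with Ifitm3 at 761 CPM in WT untreated (29 cells) and 523 in CML untreated (37 cells) and Ifitm1 at 101 and 114. In cells with erythroid transcripts Ifitm1 stood at 119 CPM in WT untreated (96 cells), 284 in CML untreated (141 cells) and 2.11 in CML imatinib (3 UMIs in 161 cells), where Ifitm2 still stood at 91.6 and Ifitm3 at 104.

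The excess of Ifitm1 in CML untreated was also seen in cells with plasma and B cell transcripts (402 CPM in 70 cells, against 70.2 in 103 cells of WT untreated) and in cells with monocyte and dendritic transcripts (1127 CPM in 40 cells, against 322 in 88 cells). In the latter group Ifitm3 was not higher in CML (401 CPM, against 499.9). The 9 cells of CML imatinib with stromal transcripts had Ifitm3 at 2947 CPM, with 65 of the 128 UMIs from 1 cell, and Ifitm1 at 0 UMIs. In CML imatinib cells without Elane and without another list, Ifitm6 stood at 51.5 CPM (33 UMIs in 14 cells), against 4.41 to 9.15 CPM in the other 3 libraries. These groups are small, come from 1 library per condition and have no test.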
